A study of Mus musculus with 12 samples.

Results

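The comparison described here is the difference between the 8 Gy responses of 2 mouse tumour lines: the change from control to 8 Gy in KPC minus the same change in MB49, on the log2 scale, for every gene with enough counts. MB49 is a line of mouse bladder carcinoma, and KPC is a line of mouse pancreatic ductal adenocarcinoma. Of 57180 gene entries in the table, 14362 passed the filter on low counts and were tested, with all 12 libraries entering the fit. The 4 groups of 3 libraries were MB49 control, MB49 given 8 Gy of radiotherapy, KPC control and KPC given 8 Gy. The label for genotype is WT in every group. Irradiated cells were collected after 48 h in culture, and the labels give no culture time for the controls. The series design also mentions senescent forms of both lines, sMB49 and sKPC, whereas the sample labels name control and 8 Gy only, so the groups are called by the sample labels. Each line stands for 1 tumour type, so a difference between the lines cannot be told apart from a difference between bladder and pancreatic tumour cells. No label says that replicate libraries stem from independently grown cells, and the spread behind the p-values is that between these libraries, which may be technical. In bulk RNA, fewer cells of a kind and less RNA per cell cannot be told apart.

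Ionising radiation breaks DNA, and the kinases ATM and ATR then hold the cell cycle, in part through p53, which induces the cyclin-dependent kinase inhibitor p21 (Cdkn1a) and its own inhibitor Mdm2. Genes of G2 phase and mitosis are switched by the DREAM and MYB-MuvB complexes through a promoter element called CHR, often beside CCAAT boxes bound by NF-Y, and p53 with p21 represses them through the same element. DNA that leaks into the cytosol can start the cGAS-STING pathway, which leads to type I interferon, and interferon-stimulated genes carry an ISRE, the site of the STAT and IRF factors. NF-kB, AP-1 and YAP with TEAD are other transcription factor systems that respond to damage, growth factors and cell density.

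A positive difference means that the KPC response was higher than the MB49 response, which can come from a rise in KPC, a fall in MB49 or both, so both responses are given. Levels are in CPM, counts set relative to the size of each library, with TMM factors, except that summed marker levels are CPM on library totals without these factors. Values after ± are SDs over 3 libraries for CPM levels and approximate standard errors for log2 values. A gene was called at an adjusted p under 0.05 in edgeR's quasi-likelihood test, and parentheses after a gene give its log2 difference with standard error and that p.

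Library totals ran from 19006015 to 26337950 counts. The ribosomal RNA gene Rn18s-rs5 took 5.11% of the counts in KPC control replicate 1 and 0.141 to 0.548% in the others. Without that library, 3365 genes were called higher and 2517 lower, against 3002 and 3160 with it. The pancreatic duct markers Krt19 and Pdx1 separated the lines in the direction of their labels at control, with 80.7 ± 12.9 CPM of Krt19 in KPC and 3.85 ± 2.48 CPM in MB49. The urothelial list did not: its summed level was 26.3 to 34.1 CPM in MB49 controls and 30.7 to 40.4 CPM in KPC controls, and the uroplakins Upk3a and Upk3b had 0 counts in the controls of both lines. Of 24 immune cell markers, 10 had 0 counts in each MB49 group and 17 in each KPC group, with Ptprc (CD45) and Cd3e at 0 in KPC. Their summed level was 69.4 to 70.5 CPM in MB49 controls, 60.3 to 66.2 CPM in irradiated MB49, 39.9 to 43.5 CPM in KPC controls and 86 to 88.2 CPM in irradiated KPC, nearly all of it Cd14, a coreceptor for bacterial lipopolysaccharide. Fibroblast and endothelial markers summed to 48.8 to 59.5 CPM and 139 to 206 CPM in the control and irradiated MB49 libraries, and to 108 to 153 CPM and 47.8 to 53.4 CPM in those of KPC. The summed level of the pancreatic list overlapped between the controls of the lines, 1290 to 1520 CPM in KPC and 1150 to 1430 CPM in MB49, most of it Spp1 (osteopontin). The part of these markers in the results was not tested.

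The response to 8 Gy differed between the lines for 6162 genes (42.9%), 3002 of them higher in KPC (20.9%) and 3160 lower (22%). Of these, 1538 and 1965 differed by at least 2-fold. The median difference over all genes tested was -0.022, with quartiles of -0.747 and 0.628. The 2 responses themselves were broad: 9086 genes (63.3%) were called in KPC, 31.3% higher and 32% lower, and 9606 (66.9%) in MB49, 35.3% higher and 31.6% lower. Counts of called genes in the lists below are to be read beside these shares over all genes. Across genes, which are not independent replicates, the KPC and MB49 responses had a Pearson r of 0.565 and a Spearman rho of 0.56. They share no libraries.

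The called genes fell into 4 main patterns. Both responses were called in the same direction with unequal size for 2123 genes (34.5%). Both were called in opposite directions for 891 (14.5%), of which 488 fell in KPC and rose in MB49 and 403 rose in KPC and fell in MB49. The response was called in MB49 but not KPC for 1724 (28%) and in KPC but not MB49 for 1355 (22%), which counts calls and does not show that the other line did not respond. Of these 1724 and 1355, 176 and 223 were under 1 CPM in both groups of the line without a call. The remaining 69 were called in neither line. For 429 called genes (6.96%) the sign of the difference turned when the change was taken in CPM instead of log2.

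**Figure D1:**
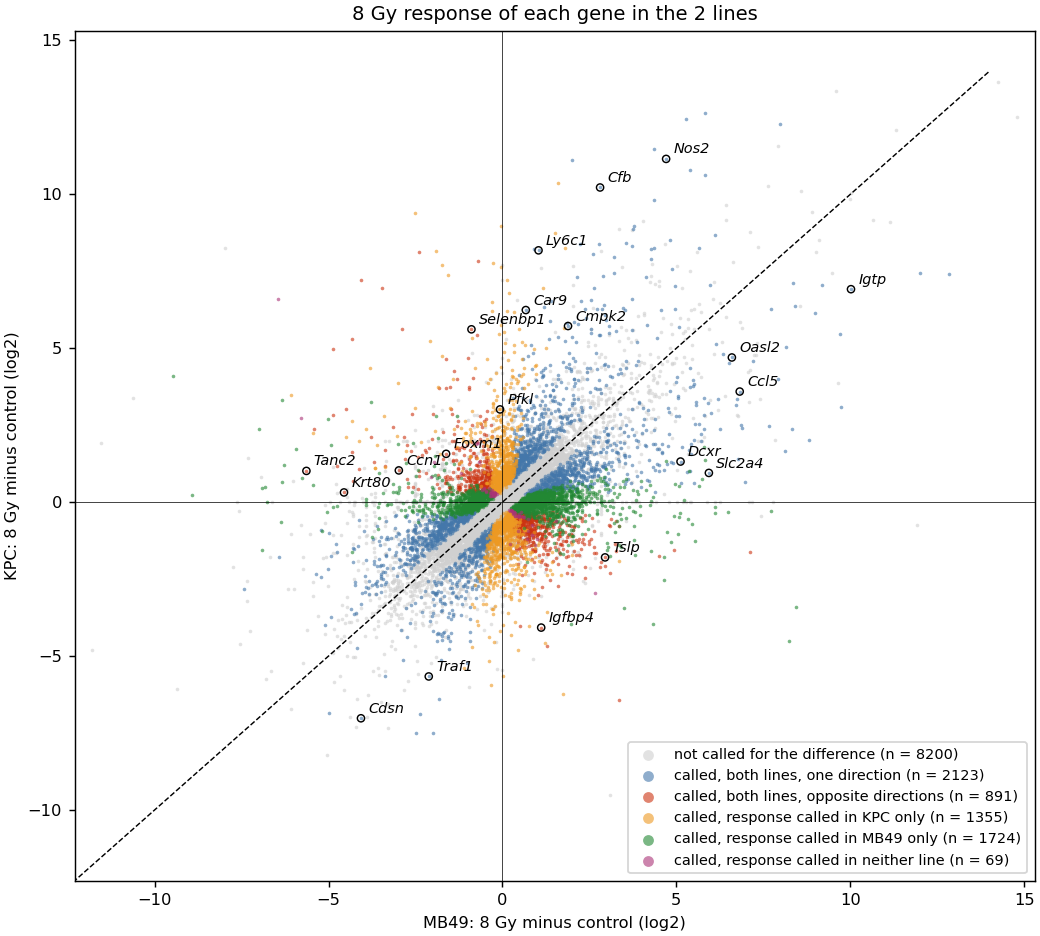
Each point is 1 of the 14362 genes tested; the x axis is the 8 Gy minus control log2 value in MB49, the y axis that in KPC, and distance from the dashed diagonal is the difference of the responses. Colours mark the patterns, with 891 genes called in opposite directions in red, and named genes are circled; genes with a group of 3 counts or fewer are drawn at fitted values, which depend on the prior count.

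The distance between the lines was not the same in controls and after 8 Gy. In controls, the median gap between the lines (KPC minus MB49, log2 of mean CPM plus 0.5) was -1.3 over the 47 genes of G2 phase and mitosis, and KPC was above MB49 for 3 of them. After 8 Gy the median gap was 0.274 and KPC was above for 31. The 62 cytosolic ribosomal protein genes turned the other way, with KPC above MB49 for 60 in controls and for 12 after 8 Gy. Over all genes tested, the gap was smaller after 8 Gy for 52.3%. The gaps use the same libraries as the difference and are a description.

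**Figure D2:**
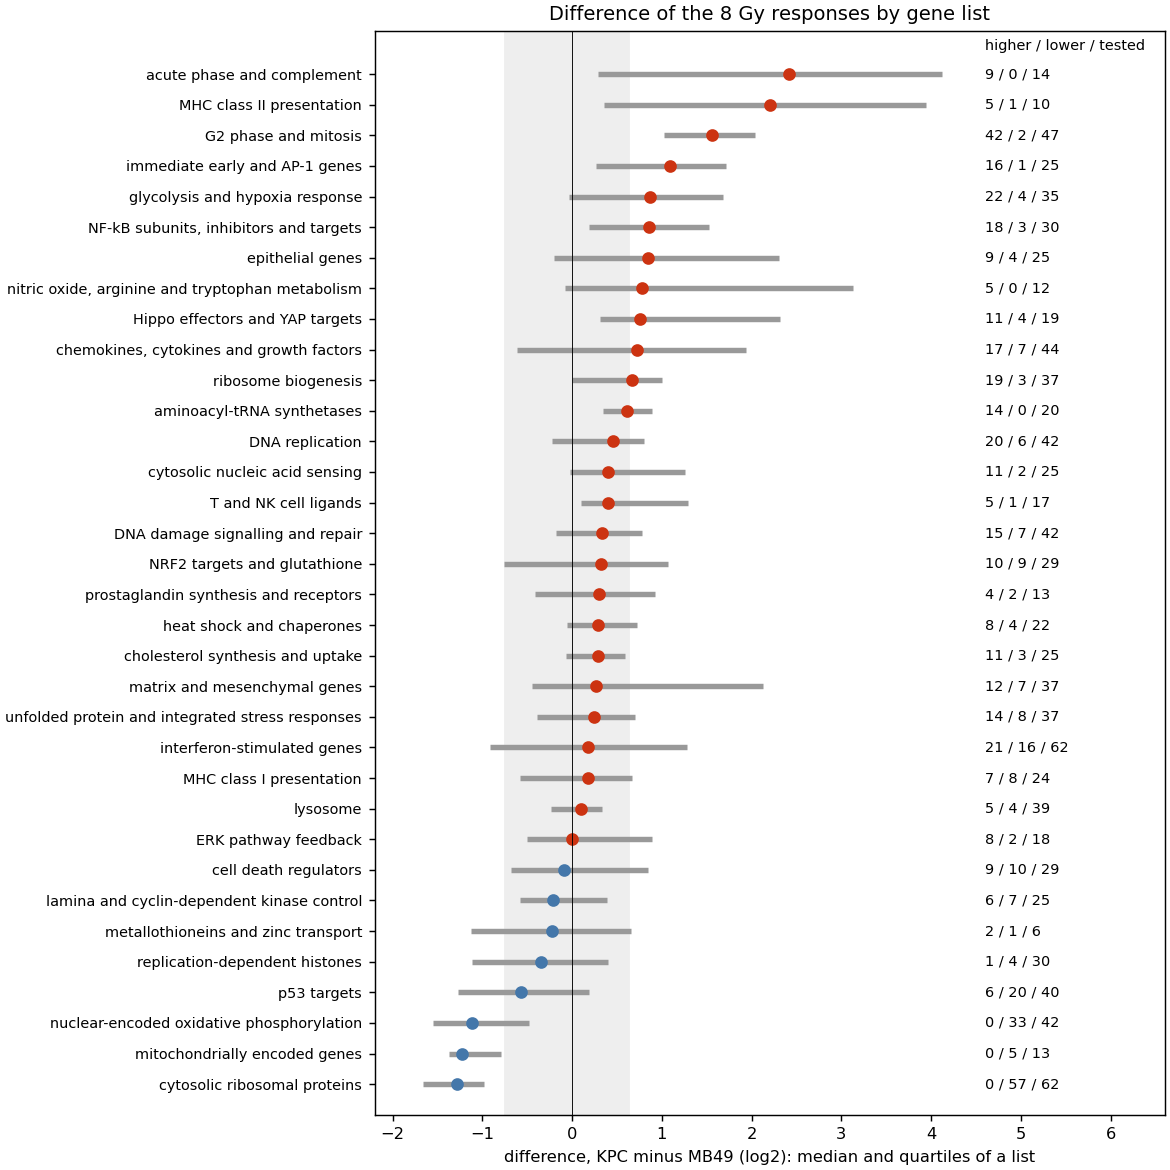
Median (point) and quartiles (bar) of the difference of responses for each gene list other than the cell type marker lists, on a log2 axis, with the numbers of genes called higher, called lower and tested at the right; the grey band spans the quartiles over all genes, -0.747 to 0.628. Among the lists drawn, acute phase, MHC class II and mitotic genes stand at the top, and ribosomal protein, mitochondrially encoded and oxidative phosphorylation genes at the bottom.

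Of 47 genes of G2 phase and mitosis tested, 42 had a higher response in KPC and 2 a lower one, with a median difference of 1.56 against -0.022 over all genes. In KPC 43 rose and 0 fell, with a median of 1.77. In MB49 24 rose and 8 fell, with a median of 0.31. Together these genes took 0.14 to 0.145% of the counts in KPC controls and 0.367 to 0.39% in irradiated KPC, groups that did not overlap, while the MB49 shares were 0.297 to 0.33% in controls and 0.259 to 0.296% after 8 Gy.

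Cyclin B1 (Ccnb1), the partner of CDK1 that drives entry into mitosis, had 11, 10.2 and 10.8 CPM in the KPC control libraries and 112, 119 and 102 CPM in the irradiated ones. In MB49 it had 55.1, 61.2 and 51.4 CPM and 66.6, 66.5 and 73.2 CPM. Neither line's groups overlapped, KPC controls were the lowest and irradiated KPC the highest of the 12 libraries, and the difference was 3.08 ± 0.16, adjusted p = 4.5e-10. Foxm1, the transcription factor that drives mitotic genes, rose in KPC from 65.1, 66.2 and 83.8 CPM to 219, 191 and 229 CPM and fell in MB49 from 219, 191 and 163 CPM to 73.7, 64.1 and 48.9 CPM. Irradiated KPC overlapped the MB49 controls, and irradiated MB49 overlapped the KPC controls, with a difference of 3.19 ± 0.23, adjusted p = 1.6e-08. Plk1, the mitotic polo-like kinase, likewise rose from 35.2 ± 0.896 to 216 ± 16.5 CPM in KPC and fell from 105 ± 8.53 to 72.1 ± 15.1 CPM in MB49 (3.16 ± 0.20, adjusted p = 4.0e-09). In all, 7 genes of the list rose in KPC and fell in MB49, Plk1, Foxm1 and the cytokinesis factor Ect2 among them. The 2 genes with a lower response in KPC were Ckap2, a spindle protein, and Spc25, a kinetochore subunit. Spc25 differed by -1.30 ± 0.34. Ckap2 rose in MB49 from 13.9, 17 and 17.3 CPM to 53.3, 46 and 74.1 CPM and had 42.8, 48.3 and 39.1 CPM and then 42.7, 48.2 and 38.8 CPM in KPC, where the groups overlapped.

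The promoters of this list are shown because most of its members had a higher response in KPC. RefSeq windows (build GRCm38.p6, another build than that named for the deposited table) from 250 bases before to 50 after the start were found for 40 of the 47 genes. The first window listed for each gene was used. Over all windows, the start was the gene start of the annotation in 72.5%, so distances to the start hold for the window used. A CHR element, TTTGAA or TTCGAA on either strand, stood in 29 of the 40 (72.5%) and in 19.4% of the 27025 promoters of the table. Among the 10347 promoters of genes tested it stood in 14%. CCAAT on either strand also stood in 29 (72.5%), against 37.9% of all promoters and 39.3% of those of genes tested. Each of the motifs stood in 26 of the 35 promoters of genes called higher (74.3%) and in 2 of the 2 of genes called lower. The 4 windows printed are those with the largest called differences among list members that hold both motifs in the 120 bases before the start. Genes of a single chromosome were left out of this choice, here and for the windows printed further below. Capitals mark both motifs, which in reverse read TTCAAA or TTCGAA and ATTGG.
Ckap2l: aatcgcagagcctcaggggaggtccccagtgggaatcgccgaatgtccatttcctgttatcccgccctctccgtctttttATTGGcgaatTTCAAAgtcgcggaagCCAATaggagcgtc
Cdc20: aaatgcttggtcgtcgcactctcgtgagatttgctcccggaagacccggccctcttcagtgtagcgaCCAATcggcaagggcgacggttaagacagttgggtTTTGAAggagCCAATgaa
Kif22: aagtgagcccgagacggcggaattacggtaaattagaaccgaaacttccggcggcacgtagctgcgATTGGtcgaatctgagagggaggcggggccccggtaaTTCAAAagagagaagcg
Ect2: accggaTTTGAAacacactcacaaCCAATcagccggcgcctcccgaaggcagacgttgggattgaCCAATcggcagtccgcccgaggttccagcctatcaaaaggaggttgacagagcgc
These lie at chr2:129297213-129297332 (minus strand), chr4:118437344-118437463 (minus strand), chr7:127042421-127042540 (minus strand) and chr3:27153879-27153998 (minus strand). The CHR began 30 bases before the start in Ckap2l, 18 in Cdc20, 17 in Kif22 and 114 in Ect2. A match is a description of the letters and not a measured site.

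The 4 genes with printed promoters were higher in irradiated than in control KPC in every library. Ckap2l, a spindle protein, had 5.82, 8.5 and 8.86 CPM in KPC controls and 51.9, 56.5 and 53.8 CPM after 8 Gy, with 25.9 ± 5.12 and 32.2 ± 4.1 CPM in MB49, where the groups overlapped (2.49 ± 0.24, adjusted p = 4.4e-07). Cdc20, the activator of the anaphase-promoting complex, rose in both lines, by 2.14 in KPC and 0.57 in MB49 (1.57 ± 0.19, adjusted p = 5.3e-06). Ect2 rose by 1.10 in KPC and fell by 0.39 in MB49, where its groups overlapped (1.49 ± 0.23, adjusted p = 8.3e-05). The kinesin Kif22 differed by 1.49 ± 0.17 (adjusted p = 4.0e-06).

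DNA replication genes were less one-sided. Of 42, 20 had a higher and 6 a lower response in KPC, with a median of 0.46, and 25 rose in KPC against 18 in MB49. Cyclin E1 (Ccne1), which starts S phase, rose in KPC from 19.8, 18.9 and 19.9 CPM to 66.7, 72 and 79.1 CPM, while MB49 had 9.7, 10.7 and 11.2 CPM and 14.3, 12.9 and 10.9 CPM, groups that overlapped (1.63 ± 0.18, adjusted p = 2.3e-06). Thymidine kinase (Tk1) differed through MB49, where it fell from 160.4 ± 10.6 to 56.8 ± 2.23 CPM, with 37 ± 5.49 and 38.1 ± 2.47 CPM in KPC (1.54 ± 0.17, adjusted p = 2.2e-06). The 2 subunits of DNA primase moved apart: the response of Prim2 was higher in KPC (1.57 ± 0.18) and that of Prim1, the catalytic subunit, lower (-1.18 ± 0.22). In KPC Prim2 rose by 2.03 and Prim1 fell by 1.03 (adjusted p = 2.1e-05).

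Among 42 genes of DNA damage signalling and repair, 15 responses were higher and 7 lower in KPC, with a median of 0.33. The checkpoint kinase Chek2 rose in both lines and more in MB49, from 3.74 ± 0.540 to 13.5 ± 0.392 CPM, against 8.68 ± 0.623 to 14.6 ± 0.440 CPM in KPC (-1.11 ± 0.21, adjusted p = 3.9e-04). Brca1, of homologous recombination, rose more in KPC (1.19 ± 0.25, adjusted p = 0.0012). Of 30 replication-dependent histone genes, 1 response was higher and 4 lower in KPC, both below the 20.9% and 22% over all genes. The share of the counts held by the whole list, 55 genes with those not tested, was lower after 8 Gy in both lines. It was 0.138 to 0.19% in MB49 controls and 0.0463 to 0.0471% in irradiated MB49, and 0.139 to 0.155% and 0.0382 to 0.041% in KPC. Single genes did not all follow this sum. Among the 30 tested, 5 rose and 3 fell in MB49 (median 0.11), and 1 rose and 5 fell in KPC (median -0.31). The linker histone H1f2 rose in MB49 from 47.9, 42.2 and 56.7 CPM to 118, 120.2 and 97.6 CPM and fell in KPC from 46.8, 40.0 and 38.6 CPM to 23.7, 22.3 and 18.6 CPM (-2.15 ± 0.20, adjusted p = 3.2e-07). H2bc21 had the same pattern (-3.21 ± 0.24, adjusted p = 2.4e-08). Most histone messages of this class lack a poly(A) tail, and the library kit is one for mRNA.

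**Figure D3:**
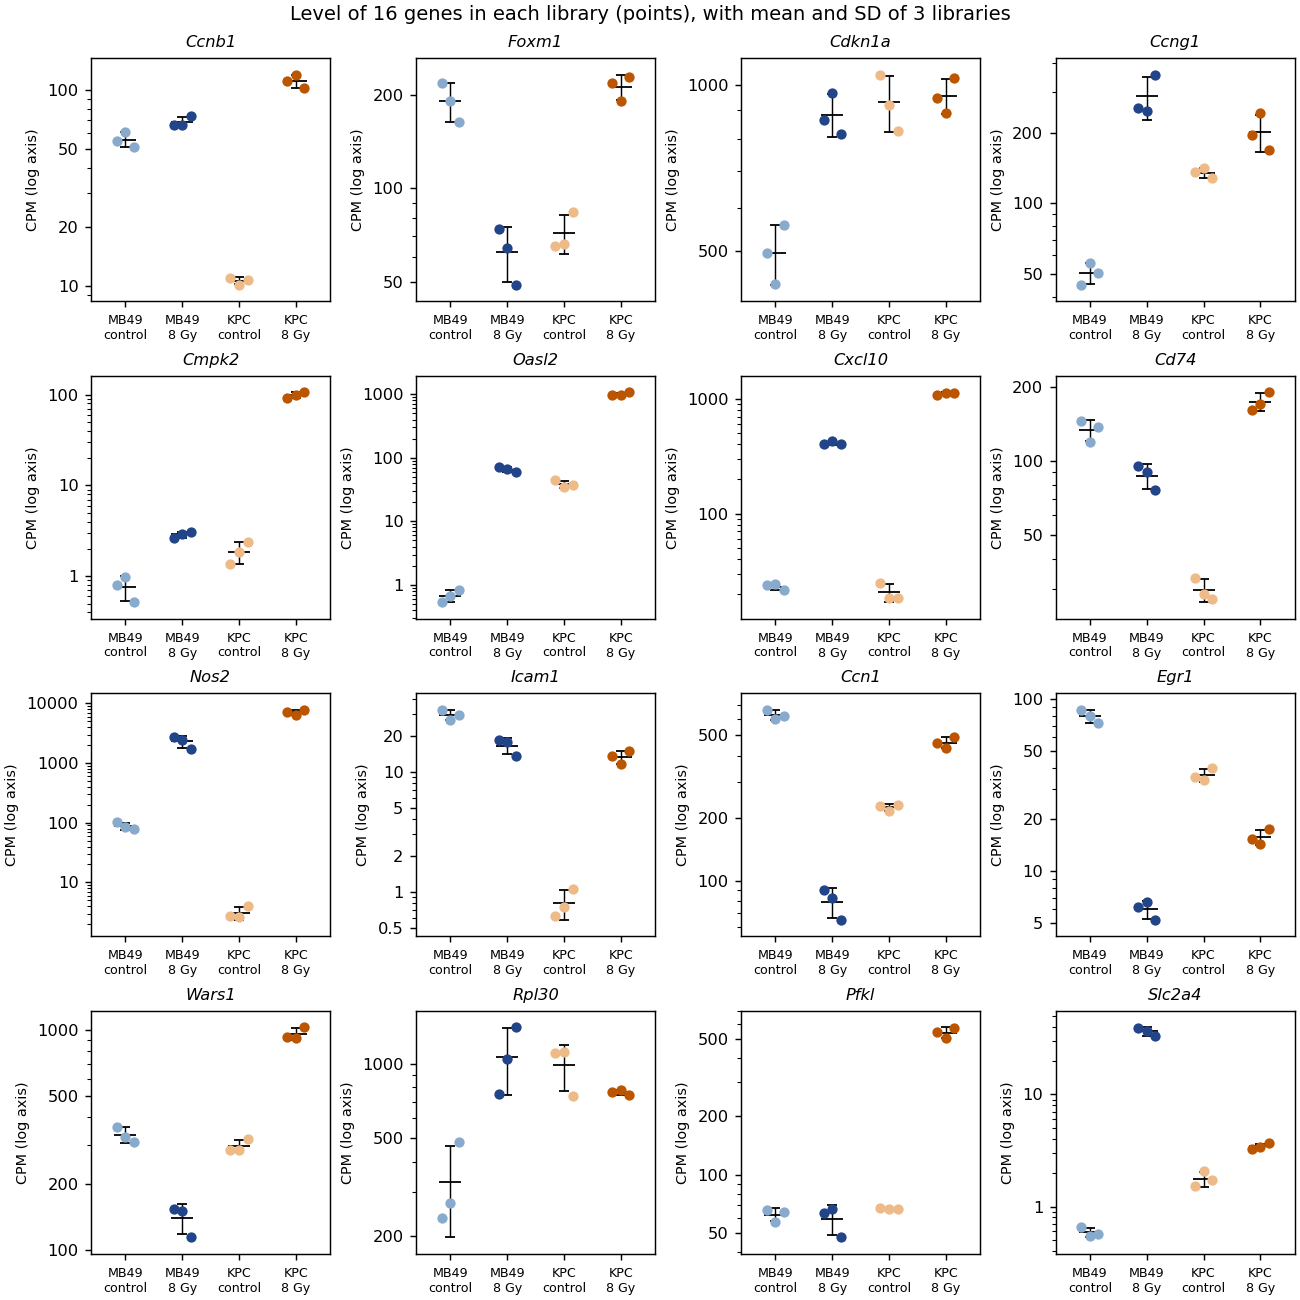
Level of 16 genes in each of the 12 libraries (points, CPM on a log axis), with mean and SD of 3 libraries per group as bars. Irradiated KPC is the highest group for Ccnb1 and Pfkl, the KPC groups overlap for Cdkn1a, irradiated MB49 is the highest for Slc2a4, and Foxm1, Icam1, Ccn1 and Wars1 move in opposite directions.

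The p53 targets leaned towards MB49. Of 40 tested, 20 had a lower response in KPC and 6 a higher one, with a median of -0.57. In MB49 25 rose and 9 fell (median 0.76), and in KPC 18 rose and 6 fell (median 0.18). p21 (Cdkn1a) rose in MB49 from 496, 435 and 557 CPM to 866, 969 and 815 CPM. The KPC libraries had 1043, 921 and 826 CPM at control and 946, 889 and 1029.9 CPM after 8 Gy, and these overlapped. All 6 KPC libraries were thus in or near the range of irradiated MB49, and the difference was -0.79 ± 0.19, adjusted p = 0.0025. With a trend over gene length taken out, it was -0.159 (adjusted p = 0.395), and the median of the list -0.4 with 19 lower.

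Mdm2, which marks p53 for degradation, rose in both lines, from 117, 139 and 125 to 332, 314 and 407 CPM in MB49 and from 125, 142 and 137 to 207, 221 and 194 CPM in KPC. The controls of the lines overlapped and the irradiated libraries did not (-0.85 ± 0.17, adjusted p = 9.0e-04). Cyclin G1 (Ccng1), another early p53 target, rose from 50.4 ± 5.35 to 286 ± 59 CPM in MB49 and from 135 ± 6.85 to 202 ± 37.2 CPM in KPC (-1.93 ± 0.22, adjusted p = 3.3e-06). The largest difference of the list was that of Dcxr, a sugar reductase, which rose from 3.12, 2.24 and 4.08 CPM to 109, 118 and 100.1 CPM in MB49 and from 50.4, 37.5 and 33.5 to 97.1, 97.1 and 109 CPM in KPC (-3.80 ± 0.25, adjusted p = 7.2e-09). Both lines ended near the same level from controls that were far apart. Pidd1, the scaffold of the PIDDosome, rose in MB49 by 1.83 and had a value of -0.24 in KPC (adjusted p = 0.11). Plk2, a stress-induced polo-like kinase, went against the list, since it fell in MB49 from 1770.0 ± 74.7 to 700.2 ± 72.6 CPM with 780.0 ± 58.5 and 709.8 ± 28.2 CPM in KPC (1.20 ± 0.17, adjusted p = 2.6e-05).

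Regulators of cell death were split. Of 29, 9 responses were higher and 10 lower in KPC, beside 20.9% and 22% over all genes. The death receptor Fas rose more in MB49, from 11 ± 1.59 to 50.8 ± 7.23 CPM against 13.6 ± 2.29 to 26.3 ± 3.15 CPM in KPC (-1.26 ± 0.22, adjusted p = 2.5e-04). Caspase 6 (Casp6) rose from 2.72, 2.97 and 2.73 CPM to 23, 22.7 and 31.3 CPM in MB49 and from 15, 14.1 and 14.8 to 29.5, 32.7 and 29.1 CPM in KPC (-2.13 ± 0.20, adjusted p = 4.8e-07). The BH3-only protein BIM (Bcl2l11) rose in MB49 by 1.72, with 0.12 in KPC (-1.60 ± 0.19, adjusted p = 4.4e-06). The necroptosis genes Ripk1 and Mlkl went the other way. Ripk1, the kinase upstream of cell death at TNF receptors, rose in KPC from 7.61, 10.5 and 9.31 CPM to 38.9, 40.9 and 40.0 CPM and overlapped in MB49 (2.19 ± 0.19, adjusted p = 1.7e-07). Mlkl, the pore-forming effector, rose in both lines and more in KPC, by 2.76 against 1.17 (1.59 ± 0.16, adjusted p = 9.8e-07). Lamin B1 (Lmnb1), whose loss accompanies senescence, fell in both lines and its difference was not called (0.22 ± 0.16, adjusted p = 0.28). Lamin A (Lmna) rose in KPC from 549.7 ± 35.7 to 1343 ± 123 CPM and overlapped in MB49 (1.14 ± 0.21, adjusted p = 3.4e-04).

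Nearly all interferon-stimulated genes rose in both lines, and single genes then differed in either direction. Of 62 tested, 60 rose in KPC and 60 in MB49, with medians of 4.15 and 4.28. The difference was higher in KPC for 21 and lower for 16, with a median of 0.18, or 0.35 where the 10 genes with a group of 3 counts or fewer were put at 3 counts. The list took 0.145 to 0.162% of the counts in KPC controls and 2.29 to 2.57% in irradiated KPC, and 0.0743 to 0.0778% and 0.717 to 0.808% in MB49. PD-L1 (Cd274), the ligand of PD-1, an inhibitory receptor of T cells, rose in both lines, from 2.66, 2.96 and 4.33 CPM to 168, 169 and 154 CPM in KPC and from 4.18, 4.36 and 4.12 CPM to 200.2, 183 and 197 CPM in MB49, and its difference of 0.11 ± 0.21 was not called (adjusted p = 0.7).

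Genes with a larger response in KPC included antiviral effectors and a chemokine. Cmpk2, a mitochondrial nucleotide kinase, rose from 1.37, 1.83 and 2.37 CPM to 91.6, 98.3 and 106 CPM in KPC and from 0.799, 0.990 and 0.521 to 2.65, 2.94 and 3.08 CPM in MB49 (3.84 ± 0.31, adjusted p = 8.1e-08). Ifit2, which binds viral RNA, rose from 5.1 ± 0.506 to 105 ± 9.67 CPM in KPC and from 3.74 ± 0.217 to 8.68 ± 1.94 CPM in MB49 (3.14 ± 0.22, adjusted p = 1.6e-08). Ifit3 started higher in KPC and rose to 1424 ± 180.2 CPM there, against 13.1 ± 1.17 CPM in MB49 (2.68 ± 0.31, adjusted p = 4.0e-06). The chemokine Cxcl10, which draws T cells, had overlapping controls, 24.9, 18.5 and 18.5 CPM in KPC and 23.6, 24.2 and 21.5 CPM in MB49, and reached 1089, 1121 and 1133 CPM and 402, 426 and 402 CPM (1.61 ± 0.18, adjusted p = 2.9e-06).

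Genes with a larger response in MB49 included oligoadenylate synthetases and interferon-inducible GTPases, whose controls differed between the lines. Oasl2 rose from 0.545, 0.660 and 0.824 CPM to 70.5, 65.4 and 60.1 CPM in MB49 and from 44.3, 34.6 and 37 CPM to 974, 972 and 1069 CPM in KPC (-1.90 ± 0.23, adjusted p = 5.7e-06). The KPC controls were far above the MB49 controls, and the gain in CPM was larger in KPC while the log2 response was larger in MB49. Irgm1, a GTPase that acts on vacuoles of pathogens, had the same relation, with 2.78 ± 0.483 and 124 ± 13.8 CPM in MB49 and 27.3 ± 3.36 and 373 ± 42 CPM in KPC (-1.71 ± 0.21, adjusted p = 7.9e-06). Igtp (Irgm3) rose from 0.281 ± 0.0420 to 299 ± 5.95 CPM in MB49 and from 17.1 ± 2.4 to 2065 ± 114 CPM in KPC (-3.10 ± 0.25, adjusted p = 7.8e-08). Some had too few counts in MB49 controls for a fold: Zbp1, a sensor of Z-form nucleic acid, had 0 counts summed over the 3 MB49 controls and 2394 after 8 Gy, against 199 and 27529 in KPC. Ifi47 had 2 and 1549 counts in MB49 and 358 and 12776 in KPC. Counts may be shared among near-identical copies in the Oas and GTPase families.

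Promoters from both sides are shown to set the directions side by side. An ISRE core (GAAA, any 2 bases, GAAA) on either strand stood in 24 of the 45 promoters found for this list (53.3%). It stood in 3.5% of all promoters and 3.1% of those of genes tested. Among genes with a higher response in KPC it stood in 8 of 16 (50%), and among those with a lower one in 8 of 12 (66.7%). The windows are the 120 bases before the start of the genes with the largest called differences whose window holds the core, 2 on the KPC side (Socs1, Rsad2) and 3 on the MB49 side (Igtp, Gbp7, Oas1g), with the core in capitals.
Socs1: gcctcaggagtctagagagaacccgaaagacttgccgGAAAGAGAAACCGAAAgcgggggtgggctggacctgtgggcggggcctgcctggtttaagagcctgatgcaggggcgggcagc
Rsad2: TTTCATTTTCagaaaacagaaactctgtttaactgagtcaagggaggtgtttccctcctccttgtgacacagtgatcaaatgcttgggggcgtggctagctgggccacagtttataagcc
Igtp: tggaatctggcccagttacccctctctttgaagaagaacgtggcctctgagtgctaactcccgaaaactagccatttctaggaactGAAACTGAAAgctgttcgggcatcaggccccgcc
Gbp7: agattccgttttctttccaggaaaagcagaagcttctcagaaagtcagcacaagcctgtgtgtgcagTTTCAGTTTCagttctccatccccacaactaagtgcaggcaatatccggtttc
Oas1g: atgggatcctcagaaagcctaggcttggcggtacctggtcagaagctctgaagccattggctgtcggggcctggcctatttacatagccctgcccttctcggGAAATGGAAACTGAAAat
They lie at chr16:10785537-10785656 (minus strand), chr12:26456453-26456572 (minus strand), chr11:58199436-58199555 (plus strand), chr3:142530216-142530335 (plus strand) and chr5:120887614-120887733 (minus strand). In Socs1 and Oas1g 2 cores overlap. Socs1, an inhibitor of interferon signalling, rose by 5.22 in KPC and 3.87 in MB49 (1.35 ± 0.39, adjusted p = 0.013), and Rsad2 (viperin) by 5.69 and 5.06 (0.62 ± 0.21, adjusted p = 0.022). The call of Rsad2 was lost in 6 of 24 alternative analyses, with values of 0.57, 0.58 and 0.55 without MB49 control replicate 2, MB49 control replicate 3 or MB49 8 Gy replicate 2. Gbp7 had 6 and 2500 counts in the MB49 groups and 75 and 4372 in those of KPC (-2.83 ± 0.54, adjusted p = 4.8e-04). Oas1g had 6 and 297 counts in MB49 and 2060 and 15365 in KPC (-2.70 ± 0.46, adjusted p = 1.9e-04).

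Sensors of cytosolic nucleic acid leaned to KPC, with 11 of 25 higher and 2 lower. Tlr3, the endosomal receptor for double-stranded RNA, had 0.998, 0.749 and 0.817 CPM in KPC controls and 8.09, 12.1 and 8.52 CPM after 8 Gy, against 0.327, 0.660 and 0.304 CPM and 1.21, 1.01 and 1.17 CPM in MB49 (2.12 ± 0.44, adjusted p = 9.1e-04). Trex1, the exonuclease that clears cytosolic DNA, rose by 2.67 in KPC and 0.59 in MB49 (2.08 ± 0.24, adjusted p = 4.3e-06).

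Of 24 genes of MHC class I presentation, 23 rose in KPC and 24 in MB49, and the differences were split, 7 higher and 8 lower. The count of lower ones was 5 when any of MB49 control replicates 1 and 2, KPC control replicates 1 and 2 or the 3 irradiated KPC libraries was left out. The peptide transporter Tap1 rose from 30.8, 25.2 and 30.2 CPM to 1311, 1314 and 991 CPM in MB49 and from 61.2, 59.1 and 58.7 CPM to 796, 731 and 885 CPM in KPC (-1.64 ± 0.19, adjusted p = 4.4e-06). The immunoproteasome subunits did not move alike: Psmb9 rose more in MB49 (-1.45 ± 0.37, adjusted p = 0.0047), as did Psmb8 (-1.01 ± 0.21, adjusted p = 9.8e-04), while Psmb10 rose more in KPC (1.02 ± 0.21, adjusted p = 0.0011). Tapbpl, a peptide editor, rose from 7.35 ± 0.863 to 142 ± 10.3 CPM in KPC and from 29.6 ± 4.1 to 115 ± 9.71 CPM in MB49 (2.31 ± 0.19, adjusted p = 6.9e-08). Irf1, which activates this gene set, rose more in KPC (1.01 ± 0.16, adjusted p = 1.1e-04). The light chain B2m rose by 2.93 in MB49 and 2.32 in KPC, and its difference of -0.62 ± 0.23 (adjusted p = 0.036) was not called in 13 of 24 alternative analyses. These include leaving out KPC control replicate 1 (-0.34), MB49 control replicate 1 or 2 (both -0.56), MB49 8 Gy replicate 3 (-0.46) or any irradiated KPC library (-0.64 to -0.60). With the length trend taken out it was 0.0874 (adjusted p = 0.671).

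MHC class II genes were higher in KPC for 5 of 10 and lower for 1, with a median of 2.21, or 1.35 with the 5 genes at the count floor put at 3 counts. The invariant chain Cd74 rose in KPC from 33.5, 28.7 and 27.4 CPM to 161, 171 and 189.5 CPM and fell in MB49 from 145, 119 and 137 CPM to 94.9, 90.0 and 75.8 CPM (3.16 ± 0.18, adjusted p = 1.5e-09). The peptide exchange factor H2-DMa rose in both, to 43 ± 3.34 CPM in KPC and 2.69 ± 0.255 CPM in MB49 (1.75 ± 0.25, adjusted p = 3.5e-05). The gene with a lower response in KPC was Ifi30, a lysosomal thiol reductase, which rose in MB49 by 2.30 and had 0.25 in KPC (-2.04 ± 0.23, adjusted p = 2.8e-06). The Ly6 surface antigens showed wide differences: Ly6a (Sca-1) rose in KPC from 5.62, 4.87 and 4.82 CPM to 815, 845 and 799 CPM and in MB49 from 253, 249 and 306 to 1057, 1239 and 1253 CPM (5.19 ± 0.19, adjusted p = 8.5e-12). Ly6c1 had 0.965 ± 0.286 and 280.1 ± 10.4 CPM in KPC and 327 ± 14.7 and 672 ± 54.8 CPM in MB49 (7.14 ± 0.22, adjusted p = 1.3e-12). For both, the gain in CPM was larger in MB49 although the log2 response was larger in KPC.

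Of 30 genes of the NF-kB list, 18 were higher and 3 lower, with a median of 0.85, while the medians of the responses were 1.02 in KPC and -0.30 in MB49. Of 14 acute phase and complement genes, 9 were higher and 0 lower, with a median of 2.42, or 2.10 with 5 genes at the floor put at 3 counts. In the alternative analysis with limma-voom, 9 of them were higher and 3 lower. Of 44 chemokines, cytokines and growth factors, 17 were higher and 7 lower, with a median of 0.72, or 0.56 with 13 genes put at the floor.

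Nos2, the inducible nitric oxide synthase, had 2.75, 2.66 and 4.0 CPM in KPC controls and 7189.8, 6482 and 7743 CPM after 8 Gy. In MB49 it had 102, 84.8 and 77.6 CPM and 2712, 2455 and 1740.1 CPM. It rose in both lines without overlap, from the lower start to the higher end in KPC (6.45 ± 0.28, adjusted p = 4.9e-11). Complement factor B (Cfb), of the alternative pathway, rose from 0.541, 0.674 and 0.123 CPM to 551, 534 and 552 CPM in KPC and from 0.327, 0.220 and 0.738 CPM to 2.99, 3.38 and 2.43 CPM in MB49 (7.42 ± 0.62, adjusted p = 1.4e-07). The classical pathway protease C1s1 rose to 324 ± 27.1 CPM in KPC and 958 ± 34 CPM in MB49, from 4.14 ± 0.732 and 145 ± 7.64 CPM (3.56 ± 0.19, adjusted p = 5.2e-10). C3, the central complement component, differed by 2.51 ± 0.22, with 29.1 ± 4.12 and 706 ± 37.6 CPM in KPC and 588 ± 59 and 2501 ± 482 CPM in MB49. For C1s1 and C3 the MB49 libraries held more of the message at both conditions.

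Icam1, the adhesion ligand for leukocytes, rose in KPC from 0.624, 0.749 and 1.06 CPM to 13.4, 11.6 and 14.9 CPM and fell in MB49 from 32.7, 26.8 and 29.5 CPM to 18.2, 17.7 and 13.5 CPM (4.87 ± 0.26, adjusted p = 6.7e-10). Tnfaip3 (A20), the feedback inhibitor of NF-kB, also rose by 1.10 in KPC and fell by 1.26 in MB49 (2.37 ± 0.18, adjusted p = 4.6e-08). Outside the list, the costimulatory receptor Tnfrsf9 (4-1BB) rose in KPC from 14.3 ± 0.350 to 174 ± 11.4 CPM and had 49.8 ± 6.52 and 52.6 ± 3.59 CPM in MB49 (3.52 ± 0.17, adjusted p = 1.6e-10). Cish, a cytokine-induced inhibitor of STAT5 signalling, rose by 2.85 in KPC and fell by 2.00 in MB49 (4.86 ± 0.23, adjusted p = 1.6e-10). On the list, Traf1 and Sod2 had lower responses in KPC. Traf1, an adaptor of TNF receptors, fell in both lines, from 78.3, 70.5 and 64.7 CPM to 1.74, 1.3 and 1.14 CPM in KPC and from 654, 589 and 691 to 163, 155 and 127 CPM in MB49 (-3.54 ± 0.22, adjusted p = 3.5e-09). Sod2, the mitochondrial superoxide dismutase, rose more in MB49 (-1.65 ± 0.18, adjusted p = 1.6e-06).

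Among secreted factors, Ccl5, a chemokine for T cells, rose from 0.436, 0.440 and 0.607 CPM to 49, 60.3 and 58.5 CPM in MB49 and from 30.5, 24.6 and 19.5 CPM to 305, 286 and 309 CPM in KPC. The log2 response was larger in MB49 (-3.23 ± 0.27, adjusted p = 1.1e-07) and the level higher in KPC at both conditions. Csf1, the macrophage growth factor, fell in both lines and more in MB49, from 1888, 1737 and 1754 CPM to 365, 347 and 259 CPM against 719, 828 and 871 to 626, 575 and 639 CPM in KPC (2.08 ± 0.19, adjusted p = 3.6e-07). The neutrophil chemokine Cxcl2 rose in KPC to 104 ± 2.85 CPM and fell in MB49 to 186 ± 6.69 CPM (1.88 ± 0.20, adjusted p = 1.5e-06). Tslp, an epithelial cytokine, had the opposite pattern and rose in MB49 from 0.944, 0.916 and 1.91 CPM to 8.11, 8.29 and 12.4 CPM and fell in KPC from 5.33, 4.42 and 3.47 to 1.64, 1.17 and 0.972 CPM (-4.75 ± 0.42, adjusted p = 2.0e-07). Igfbp4, which binds insulin-like growth factors, fell in KPC from 323, 263 and 264 CPM to 17.8, 15.9 and 16.7 CPM and rose in MB49 from 327, 278 and 342 to 725, 759 and 565 CPM (-5.19 ± 0.21, adjusted p = 2.8e-11). Il6 had 0 counts summed over the KPC controls and 55 after 8 Gy, with 45 and 266 in MB49. Ccl2, the monocyte chemokine, had 8 and 174 counts in KPC, and fell in MB49 from 223 ± 49.1 to 112 ± 19.5 CPM. Il33 had 2584 and 17404 counts in KPC and 2 and 0 in MB49.

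Of 25 immediate early and AP-1 genes, 16 had a higher response in KPC and 1 a lower one, with a median of 1.09. In MB49 19 fell and 1 rose, and in KPC 16 fell and 8 rose. Egr1, an early growth response factor, fell in MB49 from 86.6, 79.8 and 72.6 CPM to 6.16, 6.66 and 5.22 CPM and in KPC from 35.2, 33.8 and 39.8 to 15.5, 14.3 and 17.6 CPM (2.53 ± 0.19, adjusted p = 2.9e-08). The controls were higher in MB49 and the irradiated libraries higher in KPC. Srf, the serum response factor, fell in MB49 from 161 ± 15.8 to 44.7 ± 7.05 CPM and rose in KPC from 65.5 ± 12.6 to 122 ± 9.09 CPM (2.74 ± 0.21, adjusted p = 4.6e-08). The member with a lower response in KPC was Fosb, which fell there (-0.96 ± 0.23, adjusted p = 0.003). Myc fell in both lines, from 1348, 1246 and 1449.8 CPM to 81.9, 75.2 and 60.7 CPM in MB49 and from 582, 613 and 701 to 52.2, 49.3 and 56 CPM in KPC, and the difference was small beside both falls (0.62 ± 0.19, adjusted p = 0.012). Of 18 genes of ERK pathway feedback, 8 responses were higher and 2 lower in KPC, with a median of 0.0034. Among the phosphatases of MAP kinases, Dusp1 rose by 1.01 in KPC and fell by 1.04 in MB49 (2.06 ± 0.16, adjusted p = 6.0e-08). The 2 lower ones, Dusp7 (-1.93 ± 0.18, adjusted p = 4.4e-07) and Dusp4 (-1.05 ± 0.25, adjusted p = 0.0027), rose in both lines and more in MB49. The AP-1 site TGAGTCA, on either strand, stood in 0 of the 19 promoters found for the immediate early genes and 0 of the 13 for ERK feedback. It stood in 5.2% of all promoters and 4% of those of genes tested. The counts of 0 say only that these letters are not in the windows.

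Of 19 Hippo effectors and YAP targets, 11 were higher and 4 lower, with a median of 0.75. The response medians were 0.28 in KPC and -1.08 in MB49. Ccn1 (CYR61), a matricellular YAP target, fell in MB49 from 662, 597 and 619 CPM to 90.4, 82.7 and 65.1 CPM and rose in KPC from 228, 216 and 233 CPM to 459, 434 and 489.8 CPM (4.01 ± 0.18, adjusted p = 1.2e-10). Ankrd1 fell in MB49 from 226, 264 and 297 CPM to 36.7, 36.3 and 46.2 CPM and rose in KPC from 149.6, 177 and 154 to 221, 231 and 219 CPM (3.20 ± 0.19, adjusted p = 1.8e-09). Amotl2, a scaffold that restrains YAP, fell in both lines and more in MB49, to 5.27 ± 0.801 CPM from 93.3 ± 4.35 CPM (2.73 ± 0.20, adjusted p = 2.9e-08). The kinase Nuak2 went the other way and rose more in MB49 (-2.65 ± 0.21, adjusted p = 7.3e-08).

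The promoters of Ccn1 and Amotl2 are shown as those of the 2 genes with the largest called differences on this list among promoters that hold a TEAD motif. The motif GGAATG on either strand, which was added after the values were seen, stood in 10 of 14 promoters of the list (71.4%). It stood in 14.6% of all promoters and 12.1% of those of genes tested. Among genes with a higher response in KPC it stood in 7 of 9 (77.8%), and among those with a lower one in 2 of 2. Capitals mark it in the 120 bases before the start, here as its reverse CATTCC.
Ccn1: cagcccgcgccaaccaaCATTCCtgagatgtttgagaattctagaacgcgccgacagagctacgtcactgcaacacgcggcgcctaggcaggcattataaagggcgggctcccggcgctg
Amotl2: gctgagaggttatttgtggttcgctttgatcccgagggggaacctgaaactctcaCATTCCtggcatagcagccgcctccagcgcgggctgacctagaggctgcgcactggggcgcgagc
They lie at chr3:145649986-145650105 (minus strand) and chr9:102717684-102717803 (plus strand), and the motif begins 103 and 65 bases before the start.

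Epithelial and matrix genes held further wide differences. Of 25 epithelial genes 9 were higher and 4 lower in KPC, and of 37 matrix and mesenchymal genes 12 were higher and 7 lower. The shares over all genes were 20.9% higher and 22% lower. Tanc2, a scaffold protein on neither list, fell in MB49 from 46.1, 46.9 and 36.6 CPM to 1.32, 0.916 and 0.420 CPM and rose in KPC from 30.2, 34.7 and 44.9 to 74.5, 67.2 and 80.3 CPM (6.65 ± 0.32, adjusted p = 1.6e-10). Krt80, a keratin also on neither list, fell in MB49 from 75.6 ± 7.63 to 3.22 ± 0.551 CPM with 15.5 ± 1.46 and 19.3 ± 0.0964 CPM in KPC (4.87 ± 0.20, adjusted p = 2.8e-11). Krt8 rose in KPC from 363 ± 31.7 to 1825 ± 124 CPM and by 0.32 in MB49 (2.01 ± 0.19, adjusted p = 5.4e-07). The duct keratin Krt19 rose in KPC to 416 ± 22.7 CPM and was at 3.25 ± 0.136 CPM in irradiated MB49 (2.59 ± 0.44, adjusted p = 4.5e-04). Vimentin (Vim) rose in both lines, more in KPC on the log2 scale (1.88 ± 0.18, adjusted p = 6.0e-07). Collagen IV (Col4a2) rose by 0.95 in MB49 and fell by 0.58 in KPC (-1.52 ± 0.24, adjusted p = 7.7e-05). The matrix protein tenascin C (Tnc) had 19679 counts in control and 22363 in irradiated KPC, against 48 and 0 in the MB49 groups.

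Genes of the translation apparatus did not move alike. Of 62 cytosolic ribosomal protein genes, 57 had a lower response in KPC and 0 a higher one, with a median of -1.28. In MB49 58 rose and 1 fell (median 1.28), and in KPC 8 rose and 7 fell (median -0.09). Their share of counts was 4.15 to 5.94% in MB49 controls and 7.92 to 9.65% in irradiated MB49, and 7.5 to 9.49% and 6.8 to 6.82% in KPC. Within the control groups, 1 library of each line stood apart towards the other line: MB49 control replicate 3 was at 5.94% against 4.15 and 4.27%, and KPC control replicate 3 at 7.5% against 9.21 and 9.49%. Rpl30, of the large subunit, had 237, 271 and 482 CPM in MB49 controls and 755, 1043 and 1401 CPM after 8 Gy, and 1099, 1110.0 and 738 CPM and 764, 779.6 and 745 CPM in KPC, where the groups overlapped (-2.06 ± 0.38, adjusted p = 8.1e-04). Rps19, of the small subunit, had a difference of -2.04 ± 0.36, adjusted p = 5.6e-04.

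Nuclear genes of oxidative phosphorylation followed the same course, with 33 of 42 lower in KPC, 0 higher and a median of -1.12. In MB49 39 rose and 0 fell, and in KPC 9 rose and 11 fell. Uqcrh, the hinge subunit of complex III, rose in MB49 from 22, 20.3 and 43.8 CPM to 126, 166 and 201 CPM and had 65.9, 61.2 and 42.9 CPM and 71.4, 68.5 and 74.6 CPM in KPC (-2.19 ± 0.39, adjusted p = 6.8e-04). Ndufa5 of complex I rose in MB49 and fell in KPC (-2.28 ± 0.48, adjusted p = 0.0019). Of 13 genes encoded in mitochondria, 5 were lower and 0 higher. In KPC 2 rose and 4 fell, and in MB49 5 rose and 0 fell. Their summed share of the counts was higher after 8 Gy in both lines. It was 0.342 to 0.524% in KPC controls and 0.5645 to 0.813% in irradiated KPC, and 0.355 to 0.434% and 0.619 to 0.939% in MB49. Cytochrome b (mt-Cytb) fell in KPC from 434 ± 114 to 179 ± 22.6 CPM and had 350.5 ± 31.7 and 358 ± 75.4 CPM in MB49 (-1.31 ± 0.26, adjusted p = 6.1e-04).

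Most of these genes are short, and the difference moved with gene length over all genes. In 8 groups of genes by length, the median difference was -0.724 among the shortest (median 831 bases) and 0.208 among the longest (median 6961 bases). The MB49 response carried most of this, from 0.639 to -0.284, against -0.0572 and -0.0869 in KPC. With a length trend taken out of each library, the median of the ribosomal proteins was -0.719 with 44 lower and 1 higher, and that of oxidative phosphorylation -0.516 with 27 lower and 1 higher.

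**Figure D4:**
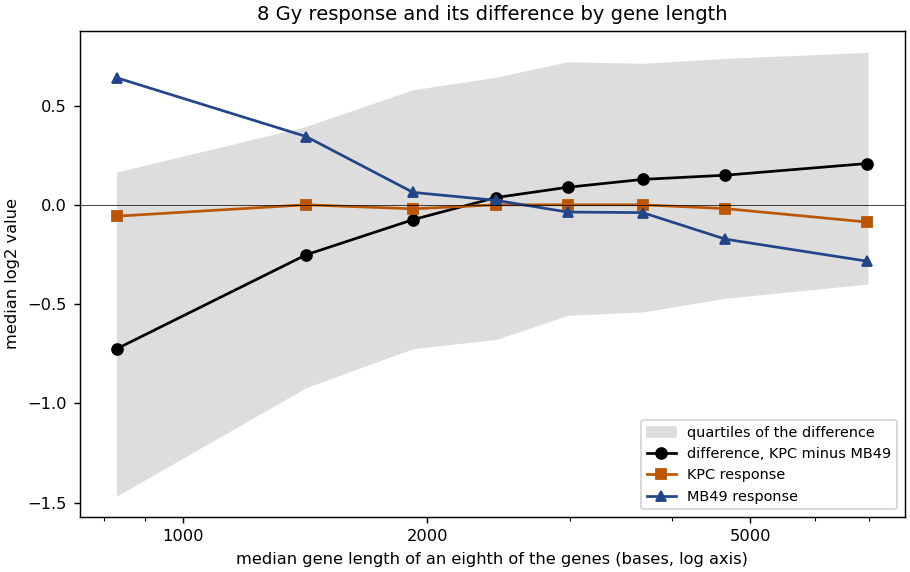
Median difference of responses (circles, with quartiles as a grey band) and median responses of KPC (squares) and MB49 (triangles) in 8 groups of genes by length, against median length in bases on a log axis. The MB49 medians go from 0.639 to -0.284 with length, while the KPC medians lie between -0.0869 and 0.

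Ribosome biogenesis, which makes the subunits from precursor RNA, fell in both lines and further in MB49. Of 37 genes, 29 fell in KPC (median -1.47) and 31 in MB49 (median -1.88), and the difference was higher in KPC for 19 and lower for 3. Tsr1, a maturation factor of the small subunit, fell from 99.3, 115 and 109 CPM to 7.54, 7.38 and 10.0 CPM in MB49 and from 40.0, 53.5 and 48.7 CPM to 12.9, 12.3 and 12.4 CPM in KPC (1.77 ± 0.20, adjusted p = 3.0e-06). Rrp12 differed by 1.60 and Wdr43 by 1.56 in the same way. Nop10, of the pseudouridylation complex, fell in KPC from 72.4 ± 19.3 to 17.9 ± 0.450 CPM and had 30.3 ± 8.57 and 39.9 ± 7.33 CPM in MB49 (-2.42 ± 0.29, adjusted p = 8.7e-06). An E-box, CACGTG, the letters bound by Myc, stood in 11 of 32 promoters of this list (34.4%). It stood in 7.2% of all promoters and 10% of those of genes tested.

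Of 20 aminoacyl-tRNA synthetases, which load amino acids on tRNA, 14 had a higher response in KPC and 0 a lower one, with a median of 0.61. Wars1, the tryptophan enzyme and also an interferon-induced gene, rose in KPC from 285, 286 and 319 CPM to 929.7, 919 and 1028 CPM and fell in MB49 from 363, 326 and 309.8 CPM to 154, 149 and 114 CPM (2.95 ± 0.19, adjusted p = 4.1e-09). Gars, the glycine enzyme, rose in KPC by 1.58 and had 0.04 in MB49 (1.54 ± 0.16, adjusted p = 1.5e-06). Tars, the threonine enzyme, fell in both lines and more in MB49 (1.19 ± 0.17, adjusted p = 3.3e-05).

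**Figure D5:**
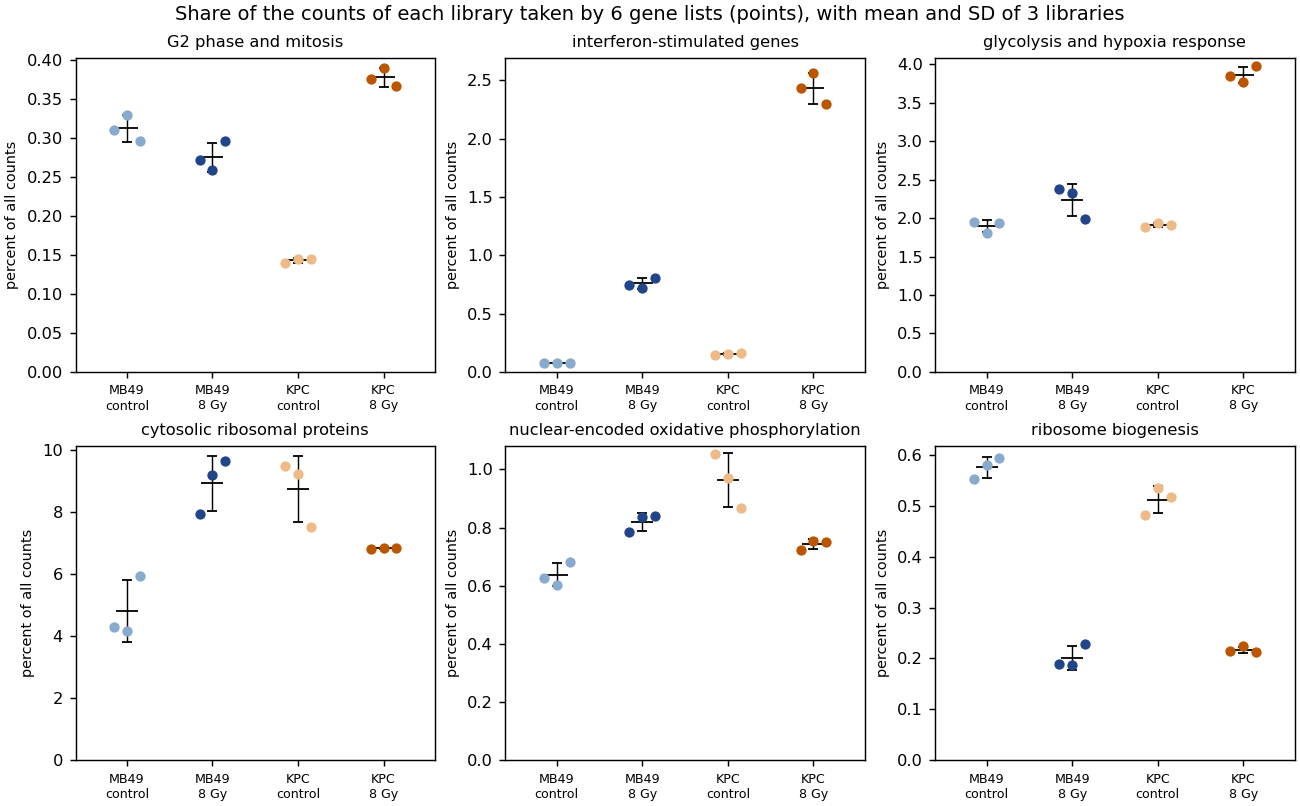
Percent of each library's counts taken by 6 gene lists (points), with mean and SD of 3 libraries per group. The mitotic and glycolytic shares rise in KPC, the ribosomal protein share rises in MB49, to between 7.92 and 9.65%, and the ribosome biogenesis share falls in both lines.

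Of 35 genes of glycolysis and the hypoxia response, 32 rose and 2 fell in KPC (median 1.54), 21 rose and 7 fell in MB49 (median 0.67), and the difference was higher in KPC for 22 and lower for 4. The list took 1.88 to 1.94% of the counts in KPC controls and 3.77 to 3.97% after 8 Gy, and 1.81 to 1.95% and 1.99 to 2.38% in MB49. Pfkl, the liver-type phosphofructokinase, had nearly equal controls, 67.2, 67 and 66.5 CPM in KPC and 65.5, 56.9 and 64.6 CPM in MB49. It reached 543, 504 and 572 CPM in irradiated KPC against 63.7, 66.8 and 47.7 CPM in irradiated MB49 (3.08 ± 0.18, adjusted p = 2.2e-09). Car9, a carbonic anhydrase induced by HIF-1, rose from 1.37, 1.01 and 1.18 CPM to 88.7, 81.9 and 99.7 CPM in KPC and from 20.2, 19.9 and 17.1 to 33.8, 32.4 and 25.1 CPM in MB49 (5.57 ± 0.23, adjusted p = 2.8e-11). Pdk1, which holds pyruvate from the mitochondria, rose by 1.97 in KPC and fell by 0.74 in MB49 (2.70 ± 0.16, adjusted p = 2.6e-09). Adm (adrenomedullin), another hypoxia-induced gene, rose more in MB49 (-1.43 ± 0.18, adjusted p = 8.3e-06). Slc2a4 (GLUT4), the insulin-responsive glucose transporter and not on the list, rose from 0.654, 0.550 and 0.564 CPM to 39.1, 37.1 and 33.1 CPM in MB49 and from 1.54, 2.06 and 1.72 to 3.28, 3.38 and 3.66 CPM in KPC (-4.99 ± 0.26, adjusted p = 3.7e-10).

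Sterol, redox, lysosomal and chaperone lists had medians nearer to that of all genes. Of 25 genes of cholesterol synthesis and uptake, 23 rose in KPC and 20 in MB49, and 11 differences were higher and 3 lower. A sterol element (TCAC, any base, CCAC, on either strand) stood in 1 of the 17 promoters found. It stood in 1.2% of all promoters and 1% of those of genes tested. The mevalonate enzyme Mvd rose more in MB49 (-1.23 ± 0.20, adjusted p = 1.4e-04). NRF2 targets were split, 10 higher and 9 lower of 29. The quinone reductase Nqo1 rose in KPC from 0.291, 0.561 and 0.490 CPM to 20.3, 21.3 and 20.2 CPM and in MB49 from 11, 9.13 and 10.7 to 88.4, 86 and 81.8 CPM (2.44 ± 0.24, adjusted p = 5.5e-07), while the glutathione transferase Gsta4 rose more in MB49 (-1.81 ± 0.20, adjusted p = 2.8e-06). Of 39 lysosomal genes, 33 rose in KPC and 32 in MB49. In this list 5 differences were higher and 4 lower, both below the 20.9% and 22% over all genes. Cd68, a lysosomal membrane protein and macrophage marker, rose from 2.61 ± 0.261 to 219 ± 10.1 CPM in KPC and from 62.9 ± 7.35 to 480.2 ± 47.7 CPM in MB49 (3.46 ± 0.19, adjusted p = 6.7e-10), with Ptprc at 0 counts in KPC. Among chaperones, the constitutive Hspa8 rose more in KPC (1.94 ± 0.16, adjusted p = 9.3e-08) and the mitochondrial cochaperone Hspe1 rose in MB49 (-1.75 ± 0.27, adjusted p = 1.0e-04). Hspa5 (BiP), the sensor chaperone of the endoplasmic reticulum, rose by 1.26 in KPC and fell by 0.45 in MB49 (1.71 ± 0.20, adjusted p = 3.4e-06), in a list of unfolded protein and integrated stress response genes with 14 of 37 higher and 8 lower.

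Further genes with the largest differences belong to no list. Selenbp1, a methanethiol oxidase, rose in KPC from 7.16, 7.34 and 6.78 CPM to 348, 334 and 362 CPM and fell in MB49 from 4.32, 4.43 and 6.68 to 2.76, 3.18 and 2.33 CPM (6.51 ± 0.24, adjusted p = 8.5e-12). Cdsn, a protein of corneodesmosomes, fell in both lines, from 543, 548 and 531 CPM to 4.47, 3.69 and 4.35 CPM in KPC and from 28.4, 23.2 and 26.7 to 1.96, 1.3 and 1.45 CPM in MB49 (-2.95 ± 0.23, adjusted p = 4.0e-08). The serine protease Htra1 fell in MB49 from 34.1 ± 2.92 to 3.7 ± 0.437 CPM and overlapped in KPC, at 537 ± 32.4 and 514 ± 14.8 CPM (3.14 ± 0.18, adjusted p = 1.1e-09). Ackr3, a scavenging chemokine receptor, fell by 2.49 in MB49 and had 0.02 in KPC (2.51 ± 0.21, adjusted p = 8.5e-08). In the other direction, the potassium chloride cotransporter Slc12a4 rose in MB49 from 0.872, 1.17 and 1.13 CPM to 23.2, 25.4 and 18.1 CPM, and stood at 182 ± 6.07 and 229.8 ± 19 CPM in KPC (-4.05 ± 0.22, adjusted p = 6.2e-10). Dact3, a Wnt antagonist, rose in MB49 by 3.94 and had -0.14 in KPC (-4.08 ± 0.30, adjusted p = 2.9e-08), and the mitochondrial carrier Slc25a42 behaved likewise (-3.34 ± 0.21, adjusted p = 3.5e-09).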

How the data were processed

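RNA of 12 libraries was measured by RNA-seq with a stranded mRNA kit, per the labels' protocols. The authors deposited 1 table of estimated counts per gene, of which 6.2 to 8.65% per library were not whole. The submitters' processing notes name fastp, HISAT2, StringTie and GRCm39. The counting tool and its strand setting are not given in the sources used here. Counts were rounded, and the 525 entries without a symbol (53 of them tested, 0.184 to 0.449% of the counts) were kept as genes. Library totals of 19006015 to 26337950 set the precision. In R 4.3.3, edgeR 4.0.16 was run with filterByExpr, TMM factors and robust quasi-likelihood tests on all 12 libraries, with no block. The contrast was the KPC response minus the MB49 response, with Benjamini-Hochberg adjustment over 14362 genes, and the residual degrees of freedom were 8. The standard error is the log2 value divided by the root of F. The common biological coefficient of variation was 0.15. Steps were tested on simulated counts.

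Named genes were those called with the largest differences, 6 per pattern and direction and 3 per list and direction, with at least 30 counts in every group, plus fixed anchors. Genes with 3 counts or fewer in a group are given by counts. The genes of the printed promoters and the TEAD letters were chosen after values were seen. The minimum of 30 counts was not applied to the genes of the printed promoters. Igtp, Gbp7 and Oas1g were below it in MB49 controls, so their log2 values rest on few counts there. The genes and lists were chosen with earlier results of these data known. Alternatives were other scalings, filters and tests, limma 3.58.1 and DESeq2 1.42.0, a replicate block, and each library left out. Chosen after seeing the data were a length correction and leaving out 2 libraries together, KPC control replicate 1 and MB49 control replicate 3. Some named genes are not reported here.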

Additional observations from a re-analysis of the deposited data

Results flagged for a closer look

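The comparison is itself a test of a difference between the lines, so each named gene with an adjusted p under 0.05 (edgeR) differed between them and is listed with its log2 difference, KPC minus MB49. Over all genes, 3002 were called higher in KPC and 3160 lower. Single outlying libraries were not tested in groups of 3.

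Among cell cycle, replication and repair genes, the log2 difference was positive for Foxm1 3.19, Plk1 3.16, Ccnb1 3.08, Ckap2l 2.49, Ccne1 1.63, Prim2 1.57, Cdc20 1.57, Tk1 1.54, Kif22 1.49, Ect2 1.49 and Brca1 1.19; it was negative for H2bc21 -3.21, H1f2 -2.15, Ckap2 -1.85, Spc25 -1.30, Prim1 -1.18 and Chek2 -1.11.

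Among p53 targets, cell death and lamina genes, the log2 difference was positive for Ripk1 2.19, Mlkl 1.59, Plk2 1.20 and Lmna 1.14; it was negative for Dcxr -3.80, Casp6 -2.13, Pidd1 -2.06, Ccng1 -1.93, Bcl2l11 -1.60, Fas -1.26, Mdm2 -0.85 and Cdkn1a -0.79.

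Among interferon and antigen presentation genes, the log2 difference was positive for Ly6c1 7.14, Ly6a 5.19, Cmpk2 3.84, Cd74 3.16, Ifit2 3.14, Ifit3 2.68, Tapbpl 2.31, Tlr3 2.12, Trex1 2.08, H2-DMa 1.75, Cxcl10 1.61, Socs1 1.35, Psmb10 1.02, Irf1 1.01 and Rsad2 0.62; it was negative for Igtp -3.10, Gbp7 -2.83, Oas1g -2.70, Ifi30 -2.04, Oasl2 -1.90, Irgm1 -1.71, Tap1 -1.64, Psmb9 -1.45, Psmb8 -1.01 and B2m -0.62.

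Among inflammatory genes and secreted factors, the log2 difference was positive for Cfb 7.42, Nos2 6.45, Ccl2 5.67, Icam1 4.87, Cish 4.86, C1s1 3.56, Tnfrsf9 3.52, C3 2.51, Tnfaip3 2.37, Csf1 2.08 and Cxcl2 1.88; it was negative for Igfbp4 -5.19, Tslp -4.75, Traf1 -3.54, Ccl5 -3.23 and Sod2 -1.65.

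Among immediate early, MAP kinase and YAP genes, the log2 difference was positive for Ccn1 4.01, Ankrd1 3.20, Srf 2.74, Amotl2 2.73, Egr1 2.53, Dusp1 2.06 and Myc 0.62; it was negative for Nuak2 -2.65, Dusp7 -1.93, Dusp4 -1.05 and Fosb -0.96.

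Among lineage, matrix and remaining genes, the log2 difference was positive for Tanc2 6.65, Selenbp1 6.51, Krt80 4.87, Htra1 3.14, Krt19 2.59, Ackr3 2.51, Krt8 2.01 and Vim 1.88; it was negative for Dact3 -4.08, Slc12a4 -4.05, Slc25a42 -3.34, Cdsn -2.95 and Col4a2 -1.52.

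Among genes of translation and mitochondria, the log2 difference was positive for Wars1 2.95, Tsr1 1.77, Rrp12 1.60, Wdr43 1.56, Gars 1.54 and Tars 1.19; it was negative for Nop10 -2.42, Ndufa5 -2.28, Uqcrh -2.19, Rpl30 -2.06, Rps19 -2.04 and mt-Cytb -1.31.

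Among genes of metabolism and stress, the log2 difference was positive for Car9 5.57, Cd68 3.46, Pfkl 3.08, Pdk1 2.70, Nqo1 2.44, Hspa8 1.94 and Hspa5 1.71; it was negative for Slc2a4 -4.99, Gsta4 -1.81, Hspe1 -1.75, Adm -1.43 and Mvd -1.23.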

How the results depend on the processing

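Of the 120 named differences, 113 kept their side of the threshold under all 24 alternatives, and the called ones among them kept their direction. The exceptions were B2m, Cdkn1a, Fosb, Mdm2, Myc, Rsad2 and Socs1. Most named genes were chosen for their large called differences, so this share does not stand for all calls. Of the 6162 genes called, 3159 were also called when tested against a difference of 1.5-fold. Under each other alternative, 5232 to 6093 of them were also called. The difference of Cd274, not called in any alternative, ran from -0.00283 to 0.349. The medians of the 15 main lists kept their sign. B2m turned to 0.0874 with the length trend removed (adjusted p = 0.671). Against a difference of 1.5-fold instead of 0 (glmTreat), a stricter threshold by construction, 1469 genes were called higher and 1690 lower, with 150 in opposite directions, 537 in the same direction, 322 called in neither line and 239 of opposite sign in CPM. The lists then had 9 of DNA replication higher, 12 p53 targets lower, 11 interferon-stimulated genes higher, 4 MHC class I genes higher and 3 lower, 7 YAP targets, 11 of ribosome biogenesis, 5 synthetases and 13 of glycolysis higher. With no filter, 139 genes were called in neither line and 4 MHC class I genes were lower. With the length trend removed, 5 were lower, and with 1 library left out 5 to 8. The cause was not tested. Leaving out single libraries gave 2667 to 3365 genes higher and 2517 to 3460 lower, the extremes being without KPC control replicates 2 and 1 and without KPC control replicate 1 and MB49 control replicate 3. With KPC control replicate 1 and MB49 control replicate 3 left out together, 3558 were higher and 2861 lower. The median over all genes moved by 0.103 without KPC control replicate 1, 0.107 without both, 0.126 without a filter and -0.115 with upper-quartile factors. DESeq2 called 3387 higher and 2993 lower.

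The labels give the same replicate numbers in each group, and same-numbered libraries did not deviate together: 3 of 18 pairs had a correlation over 0.1, with a range of -0.423 to 0.389. With the replicate block, 2744 genes were called higher and 2891 lower. Depth limits mainly genes with few counts: 700 called genes (11.4%) were under 1 CPM in both groups of a line, and 299 had a group of 3 counts or fewer.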

Other observations

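Genes of nitric oxide, arginine and tryptophan metabolism, of 12 tested, had 5 higher responses in KPC and 0 lower, with a median of 0.78. Of 17 ligands of T and NK cell receptors 5 were higher and 1 lower, with a median of 0.39. Over all genes 20.9% were higher and 22% lower. Several genes were nearly specific to 1 line. Prl2c2, a prolactin-family growth factor, had 6972 counts summed over the KPC controls and 31607 after 8 Gy, against 1 and 223 in MB49. Tubb3, the neuronal beta tubulin, had 4656 and 24270 counts in MB49 and 2 and 84 in KPC. Ifit3b, a near-identical neighbour of Ifit3, had 64 and 15708 counts in KPC and 3 and 50 in MB49, and Tgtp2, an interferon-induced GTPase, 139 and 19919 against 0 and 1351. Reads of such copies may be shared.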
